A study of Homo sapiens with 6 samples.

Results

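Subtelomeric open regions are taken here as the ATAC-seq peaks that lay wholly within the first or last 1 Mb of an autosome, by the chromosome lengths of hg38. They were 2787 of the 143492 peaks of the merged list R1 and 2471 of the 134940 peaks of the merged list R2. Joined across both lists they made 3042 regions, of which 2094 held peaks of both lists and are called shared. Of the 44 autosome ends, 39 hold genes of the chromosome sequence in the RefSeq gene table, 17 on short arms (p) and 22 on long arms (q). The other 5, the short-arm ends of chromosomes 13, 14, 15, 21 and 22, hold none, and neither list had a region there. They are left out of the windows below.

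Accessible DNA was mapped with the transposase Tn5, which inserts adapters where DNA is open, in wild-type hTERT-RPE1 cells, a telomerase-immortalised line of human retinal pigment epithelium. All 6 libraries carry the same genotype and no treatment is given for any, so the study holds no contrast between conditions. Their titles form the sets R1 and R2 of 3 libraries each, and nothing in the labels says what separates the sets. Each set is 1 pooled list, so no spread between libraries could be computed and every comparison below is a description without a p-value.

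Subtelomeres are the stretches between the telomere repeats and the unique sequence of a chromosome arm. Their outer parts are built of duplicated blocks that recur on many arms and hold multicopy families such as olfactory receptors and the WASH complex genes, and the DNA inwards of them is often gene-rich and rich in G and C. Genes near telomeres can be silenced through telomere-associated chromatin, and loss of an arm's end causes several developmental disorders. In the assembly the outermost bases of most arms are unresolved, and duplicated blocks make short reads hard to place. As a check of the cell type, 9 of 14 pigment epithelium markers had a region within 1000 bp of an end of the gene in both lists, PMEL, MITF, OTX2 and MERTK among them, while the visual cycle genes RPE65 and LRAT and the pigment gene TYR had none in either. Of 8 markers of other cell types, 2 (CD3E and POU5F1) had one in both.

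The sequences below are the 250 bases before the annotated start of 6 genes of the end windows, from the RefSeq promoter table of GRCh38.p14, 5′ to 3′ on the strand of the gene. The first 5 belong to those named genes of the table whose gene-end regions ranked best by strength. SPATC1L, chosen after its value was seen, carries the end region with the most fragments. Capitals mark matches on either strand to the GC box GGGCGG, the ETS core CCGGAAG, the CCAAT core ATTGG or the TEAD core GGAATG. Neither TTAGGG, the unit of the telomere repeat, nor the AP-1 sequence TGANTCA matched in any of the 6.
ZNF268: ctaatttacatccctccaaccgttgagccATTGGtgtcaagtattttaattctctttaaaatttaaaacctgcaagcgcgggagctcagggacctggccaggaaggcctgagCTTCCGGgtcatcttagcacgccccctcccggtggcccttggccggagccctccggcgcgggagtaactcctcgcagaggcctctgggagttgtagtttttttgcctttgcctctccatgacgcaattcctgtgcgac
KANK1: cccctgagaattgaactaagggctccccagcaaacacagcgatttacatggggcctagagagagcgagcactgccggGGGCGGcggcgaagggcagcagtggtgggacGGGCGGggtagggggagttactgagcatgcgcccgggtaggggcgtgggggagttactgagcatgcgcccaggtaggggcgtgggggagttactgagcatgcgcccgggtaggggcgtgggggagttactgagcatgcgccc
ZNF256: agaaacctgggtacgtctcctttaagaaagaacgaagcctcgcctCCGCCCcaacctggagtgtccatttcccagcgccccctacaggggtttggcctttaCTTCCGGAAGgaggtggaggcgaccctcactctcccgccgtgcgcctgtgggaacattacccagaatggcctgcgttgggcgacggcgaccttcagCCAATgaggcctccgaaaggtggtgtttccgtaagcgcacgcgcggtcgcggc
ACP1: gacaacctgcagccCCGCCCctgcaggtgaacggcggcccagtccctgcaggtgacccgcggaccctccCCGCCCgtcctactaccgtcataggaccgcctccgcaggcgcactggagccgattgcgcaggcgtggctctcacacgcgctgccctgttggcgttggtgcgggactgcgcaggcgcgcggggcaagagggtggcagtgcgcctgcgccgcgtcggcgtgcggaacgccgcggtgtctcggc
RTEL1: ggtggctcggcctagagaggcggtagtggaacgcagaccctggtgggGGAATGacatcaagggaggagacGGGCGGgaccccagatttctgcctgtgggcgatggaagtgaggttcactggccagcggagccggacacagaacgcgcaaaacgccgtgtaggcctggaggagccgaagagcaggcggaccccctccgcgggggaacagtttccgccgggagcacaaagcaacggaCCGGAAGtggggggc
SPATC1L: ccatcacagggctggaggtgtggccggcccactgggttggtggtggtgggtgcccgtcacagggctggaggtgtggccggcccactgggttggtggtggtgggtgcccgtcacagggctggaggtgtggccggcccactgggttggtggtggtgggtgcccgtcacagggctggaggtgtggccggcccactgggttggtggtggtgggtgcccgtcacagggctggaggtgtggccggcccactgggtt

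ZNF268 (chr12:133181245-133181494), ZNF256 (chr19:57947707-57947956), ACP1 (chr2:264697-264946) and RTEL1 (chr20:63658062-63658311) showed no strong repeat. ZNF256 held 2 ETS matches that overlap on opposite strands. KANK1 (chr9:470045-470294) repeated itself at a shift of 36 bases, where 57.0% of bases were identical. SPATC1L (chr21:46184460-46184709) is close to a perfect tandem repeat, with 99.5% identical bases at a shift of 53. A match is a run of letters and not a shown binding site.

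Open regions were denser at the chromosome ends than in the rest of the same autosomes, by a factor that varied widely from arm to arm. The 39 windows held 71.5 regions per Mb in R1 and 63.4 in R2, beside 48.3 and 45.5 per Mb in the rest. The ratio was 1.48 in R1 (95% exact interval 1.42 to 1.53) and 1.39 in R2 (1.34 to 1.45), where the intervals cover counting error only. The windows hold 1.36% of the autosomal length and 1.996% of the R1 and 1.88% of the R2 autosomal regions. Protein-coding genes were denser there as well, with 16.5 per Mb beside 6.47, so that the ends had fewer regions per gene: 4.33 in R1 and 3.84 in R2, beside 7.47 and 7.03.

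**Figure D1:**
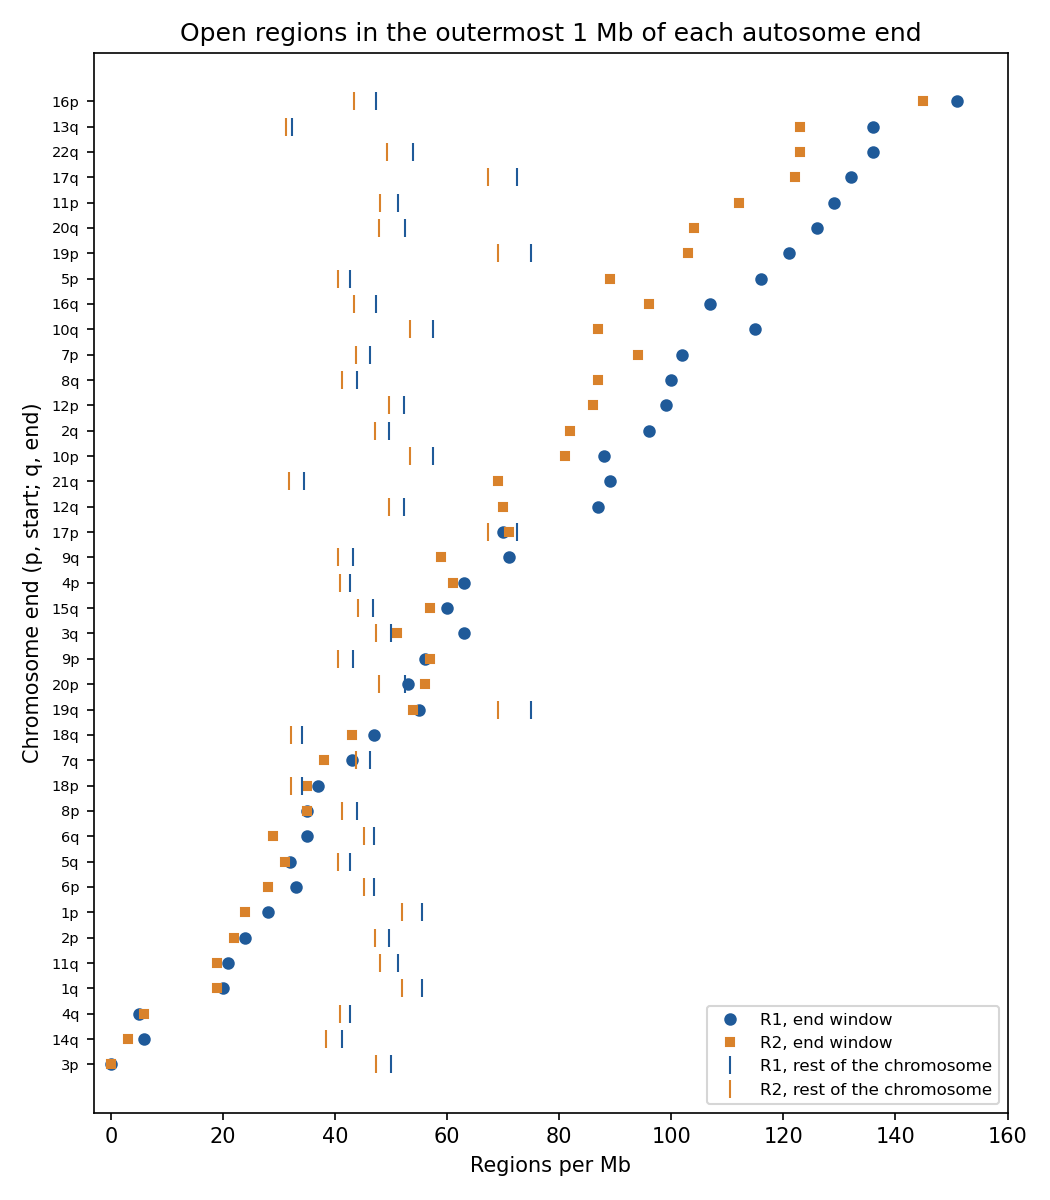
Open regions per Mb (horizontal axis) in the outermost 1 Mb of each of 39 autosome ends (vertical axis) in R1 (circles) and R2 (squares), with vertical ticks for the rest of the same chromosome. Windows range from 0 on 3p to 151 and 145 on 16p, and 25 windows lie above their chromosome's rest in both lists.

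Of the 39 windows, 25 were denser than the rest of their chromosome in both lists and 13 were sparser in both. The 17p window lay below its chromosome in R1 (70 regions, ratio 0.965) and above it in R2 (71 regions, 1.05). At least 2 times the density of the rest was reached in 11 windows in R1 and 10 in R2. By whole autosomes, the ends were denser on 17 and sparser on 5 in each list. Arms did not separate: short-arm windows had a median of 63 regions in R1 and 61 in R2, and long-arm windows 67 and 58. The long-arm end was the denser of the pair on 9 of 17 autosomes in each list. R1 had more regions than R2 in 33 windows, fewer in 4 and the same number in 2, and the R1 to R2 ratio of region counts was 1.13 at the ends and 1.06 in the rest.

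The 16p window, with the alpha-globin locus and AXIN1, a scaffold that limits WNT signalling, was the densest, with 151 regions in R1 and 145 in R2. It ranked 2 and 1 among the 90 tiles of 1 Mb that make up chromosome 16. Its leading shared region, the one with the best fold percentile averaged over both lists, lay in the body of AXIN1 (chr16:327016-328174, fold 11.6 in R1 and 11.4 in R2). The 13q window stood furthest above its own chromosome, with 136 and 123 regions, ratios of 4.20 and 3.94, and rank 1 of 114 tiles in both lists. Its leading region by that average lay between genes, 2746 bp from CFAP97D2 (chr13:114225832-114227579, folds 9.85 and 10.004). The rest of each chromosome was counted over its full length outside the end windows, so any long stretch without a region raises the ratio. Over all ends, the ratio fell to 1.24 in R1 and 1.16 in R2 once stretches over 1 Mb without a region were left out. For 13q alone this was not computed. The 22q window held 136 and 123 regions, led by the one at the end of RABL2B, a small GTPase gene, 34069 bp from the chromosome end (chr22:50782833-50784400, folds 9.70 and 10.5). The 17q window held 132 and 122, and the 11p window 129 and 112. The leading 11p region lay 8618 bp from NLRP6, an inflammasome receptor gene (chr11:268469-269788, folds 10.9 and 10.6).

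At the other extreme, the 3p window held no region in either list. The first region of chromosome 3 began at base 3126382 in R1 and 3126372 in R2, so that 4 protein-coding genes, of which CHL1 (a neural adhesion molecule) lies in the window, came before any region. The 14q window held 6 regions in R1 and 3 in R2. It contains 133 genes of the table, 42 of them immunoglobulin V segments and none protein-coding, and its leading shared region (chr14:106883219-106883510) had folds of 3.14 and 3.07. The 4q window, with the double-homeobox gene DUX4 and its neighbours FRG1 and FRG2, held 5 and 6 regions. The leading one overlapped the pseudogene RARRES2P4 (chr4:190037545-190038723, folds 9.56 and 10.99). The 1q window held 20 and 19, led by one in PGBD2, a gene derived from a piggyBac transposase (chr1:248905688-248907411, folds 9.21 and 11.02). The 11q window held 21 and 19, led by one in JAM3, a junctional adhesion molecule (chr11:134139457-134140341, folds 12.3 and 10.7). Across the 39 windows the number of regions followed the number of protein-coding genes with Pearson's r of 0.627 in R1 and 0.649 in R2 and Spearman's rho of 0.669 and 0.689, given as a description over windows that share libraries.

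Set beside inner tiles of equal gene number, the excess was not general. Windows with 0 to 4 protein-coding genes had a median of 5.5 regions in R1 and 4.5 in R2. The other 1 Mb tiles counted on the autosomes had 31 and 30. In this step 1210 such tiles were counted in R1 and 1202 in R2, so the set of tiles varied with the list. Tiles without a region appear to have been left out, while an end window with 0 regions was kept. The inner medians may thus be too high, and this step cannot decide whether such windows are sparser. With 5 to 9 genes the medians were 43 and 38, beside 59.5 and 56. With 10 to 19 genes they were 71 and 69, beside 77 and 71. Among steps from 5 genes up, only that of 20 or more had a higher median than such tiles in R1, 107 beside 101. Its 13 windows had 87 beside 92 in R2. Each step holds 4 to 13 windows, and values within a step ranged widely, from 20 to 151 regions among the most gene-rich windows in R1.

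By fold, the excess lay among weak regions. The fold enrichment of a peak over its background is the authors' value and serves here only to rank regions within a list. When each list was divided into 10 equal bins by fold, the ratio of end to inner density fell from 3.51 in R1 and 3.09 in R2 in the weakest bin to 0.617 and 0.709 in the strongest. Among regions above the median fold of their list, the ends held 23.6 per Mb in R1 beside 24.3 in the rest, and 22.2 beside 22.9 in R2, ratios of 0.971 and 0.972. Below the median they held 47.8 beside 24.0 and 41.1 beside 22.6, ratios of 1.99 and 1.82.

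**Figure D2:**
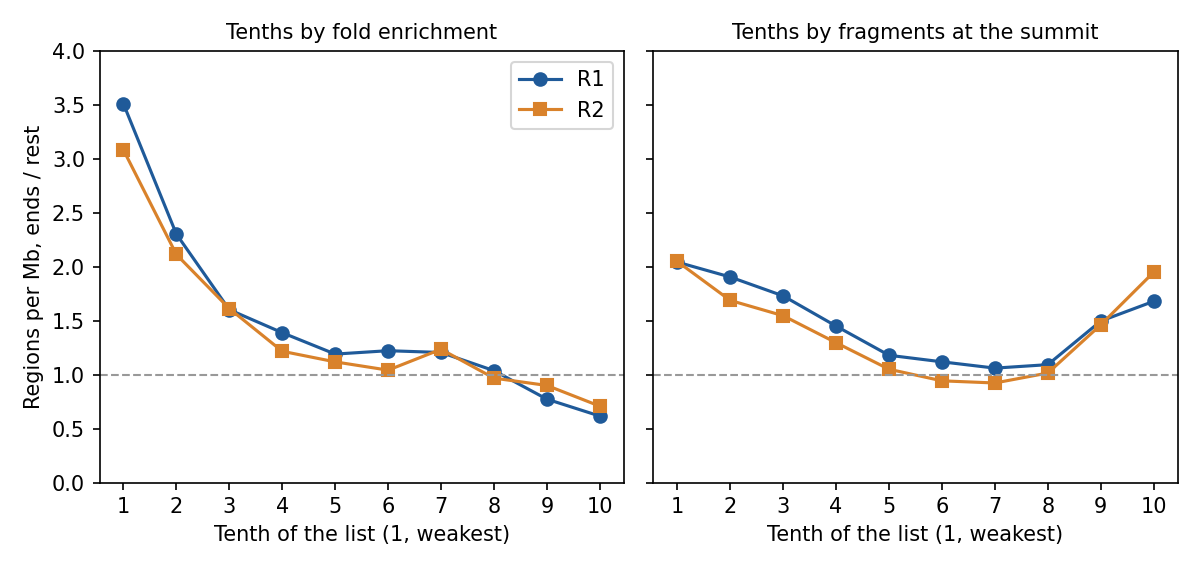
Density of end regions divided by that of the rest of the autosomes (vertical axis, linear from 0; dashed line at 1) in 10 equal bins of each list by fold (left) and by fragments at the summit (right), weakest first, for R1 (circles) and R2 (squares). By fold the ratio falls from 3.51 and 3.09 to 0.617 and 0.709, and by fragments it is high at both extremes.

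Fragments at the summit gave another order. The deposited fold and p-value fit a whole number of fragments over a local background for each autosomal peak, a relation inferred from the values. By fragments, the ratio was 2.05 in both lists in the weakest bin, 1.06 in R1 and 0.924 in R2 in the seventh, and rose to 1.68 and 1.95 in the strongest. Above the median number of fragments the ratio was 1.29 in R1 and 1.26 in R2, and below it 1.67 and 1.53, so by this measure the ends held an excess in both parts. End regions had a median of 57 fragments in R1 and 60 in R2, beside 73 and 72 in the rest. Their background was higher, with a median of 14.7 fragments in R1 and 14.2 in R2 beside 11.6 and 11.5, and it was higher on 14 of 22 autosomes in each list. The median fold was 3.45 at the ends and 5.04 in the rest in R1, and 3.64 and 5.12 in R2. It was lower at the ends on 21 autosomes in R1 and on 20 in R2. The median end region sat at percentile 30.4 of fold in R1 and 32.4 in R2, and widths were close, 637 beside 683 bp and 690 beside 703 bp. The part of the local background in the low folds was not tested.

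Fewer end regions recurred in the other list. Of the R1 end regions, 2187 (78.5%, 95% exact interval 76.9 to 80.0) shared at least 1 bp with an R2 region, beside 87.4% in the rest and 87.3% of all R1 autosomal regions. Of the R2 end regions, 2123 (85.9%, 84.5 to 87.3) overlapped an R1 region, beside 91.9% in the rest and 91.8% of all. The share was lower at the ends on 21 autosomes in R1 and 20 in R2. Weak regions recur less everywhere. Had the end regions of each fold bin recurred at the inner share of that bin, 78.1% of them would have been found from R1 and 85.9% from R2, close to the measured shares. Within shared regions the R1 and R2 summits lay a median of 53 bp apart at the ends and 37 bp apart elsewhere.

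End regions lay at protein-coding genes more often than inner ones. Within 1000 bp of either end of such a gene lay 672 R1 end regions (24.1%) and 626 R2 end regions (25.3%), beside 12.4% and 12.3% in the rest and 12.6% and 12.5% of all autosomal regions. The share was higher at the ends on 18 autosomes in R1 and 19 in R2. Gene bodies held 50.02% and 48.7% beside 47.5% and 47.3%, other genes 8.25% and 8.34% beside 12.3% and 12.5%, and the space between genes 17.6% in each list beside 27.8% and 27.9%. The fold was lower at the ends in each class. Gene-end regions had a median of 4.78 in R1 and 5.15 in R2 beside 6.21 and 6.57, body regions 3.08 and 3.26 beside 4.70 and 4.78, and regions between genes 3.20 and 3.40 beside 5.03 and 5.03.

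Per gene, the ends were like the rest. Of 644 protein-coding genes lying wholly in the windows, 494 (76.7%) carried a gene-end region in each list, though not always the same one, beside 75.2% of those elsewhere and 75.3% of all 18973. A region in R1 alone was seen for 11, in R2 alone for 15 and in neither for 124. For genes with regions, the median of the best fold was 6.20 in R1 and 6.55 in R2, beside 7.39 and 7.47 elsewhere.

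Genes of general cell machinery mostly had a gene-end region: 50 of 56 listed members (89.3%) in both lists, beside 76.7% of all genes at the ends, with median folds of 8.11 in R1 and 8.24 in R2. The members were chosen with earlier results of these data known, and RACK1, described below, is not among them. Their share is thus a description only. ACP1, a low-molecular-weight phosphatase on 2p, had 11.3 and 11.6. RTEL1, a helicase that unwinds telomere loops, lies on 20q and had 11.1 and 11.2. MED16, a Mediator subunit on 19p, had 11.8 and 10.3. The 6 without one in either list were KDM5A, GEMIN4, CTDP1, TRIM28, CHMP2A and UBE2M. For CTDP1, a phosphatase of the RNA polymerase II tail, a region lay 2.01 kb from the gene edge in R1 and 2.002 kb in R2, outside the 1000 bp used, and for GEMIN4 one lay 1.52 and 1.56 kb away. KDM5A, a histone H3K4 demethylase gene, held 3 regions in its body in R1 and 4 in R2, with 12.1 kb from the nearest one to an edge in each list.

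TRIM28, CHMP2A and UBE2M had no region nearer than 5.60, 13.1 and 17.2 kb in R1. TRIM28 encodes the corepressor of KRAB zinc finger proteins, CHMP2A an ESCRT-III subunit and UBE2M a NEDD8-conjugating enzyme. They lie side by side, with the zinc finger gene MZF1, in the outermost 79.0 kb of 19q, where neither list had any region. On 5q the outermost 368 kb was likewise without a region, and it holds RACK1, a ribosome-bound scaffold protein, with TRIM7, TRIM41, TRIM52 and OR4F3. The nearest region to RACK1 lay 66.6 kb away in R1 and 66.5 kb in R2. TRIM28, CHMP2A, UBE2M and RACK1 are used by nearly every cell, and whether the lists are complete over these ends of 19q and 5q was not tested, so an empty stretch here means only that no peak is listed. The peak numbers in each list run from first to last with 0 missing.

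Zinc finger genes were the largest of the families counted by name at the ends, with 60 genes, of which 51 (85.0%) carried a gene-end region in both, beside 85.4% of such genes elsewhere. Clusters on 19q (25 of 32) and 12q (7 of 7) hold most of them. ZNF268 on 12q, whose promoter is printed above, reached a fold of 13.99 (R1) and 12.5 (R2), and ZNF256 on 19q had 11.3 and 12.3. MZF1 and ZNF324B, both on 19q, had none. The 19q window was sparse for its chromosome, with 55 and 54 regions and ratios of 0.734 and 0.781, but its regions were strong: the median fold was 7.85 in R1 and 8.05 in R2, beside 4.22 and 4.43 in the rest of chromosome 19, and 58.2% and 57.4% of them lay at gene ends.

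Multicopy families varied from member to member. Of 31 listed members, 11 (35.5%) carried a gene-end region in both. WASHC1 on 9p, a WASH complex subunit gene close to the chromosome end, reached 9.55 in R1 and 9.72 in R2, PGBD2 on 1q 8.47 and 8.43, and OR4F6 on 15q, an olfactory receptor gene, 9.33 and 8.91. FRG1 and DUX4 on 4q had none, and the nearest region to DUX4 lay 126 kb away in each list. IFITM1 on 11p, an interferon-induced antiviral gene, had a region in R1 alone, with a fold of 1.86. By name, 4 of 37 olfactory receptor genes at the ends had a region in both lists, beside 17 of 351 elsewhere, and 26 of the 37 lie on 1q. For the 4 receptor genes (OR4F6, OR2V2, OR4F21 and OR2T11) the region lay outside the gene, within 1000 bp of an edge. None of 6 beta-defensin genes, all on 20p, had a region in both lists, beside 1 of 33 elsewhere.

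Of 30 matrix, growth factor and adhesion genes, 24 (80.0%) carried a gene-end region in both, near the 76.7% of all genes at the ends. KANK1 on 9p, a regulator of actin at focal adhesions, was the strongest, at 13.4 in R1 and 10.98 in R2. COL6A1 on 21q, a collagen VI chain, had 8.98 and 8.83, and YES1 on 18p, a SRC-family kinase, 9.14 and 8.66. ANGPT4, an angiopoietin, and CHL1 had none, and METRNL on 17q, a secreted meteorin-like factor, had one in R2 alone, with a fold of 1.81. Of 42 genes restricted to other tissues, 27 (64.3%) had a region in both lists, with lower median folds of 4.18 and 3.64. S100B on 21q, a calcium-binding protein of glia, had 9.32 and 8.75, CLUL1 on 18p, a clusterin-like gene of the retina, 7.95 and 9.10, and SCRT2 on 20p, a neuronal zinc finger repressor, 6.44 and 8.67. The neuropeptide gene ADCYAP1 and CPT1B, the muscle form of carnitine palmitoyltransferase, had none, and the calcium channel gene CACNA1B had one in R2 alone (2.65). Among 24 genes tied to terminal deletions or copy-number disorders, 17 (70.8%) had a region in both lists, also near the share over all genes, such as ADNP2 on 18q (11.3 and 10.6) and PIGG on 4p (11.3 and 10.02), a GPI-anchor enzyme.

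The named genes with the most regions around them were 90.5 to 415 kb long. DIP2C on 10p, a gene of 415 kb, had 39 shared regions within 20 kb of its interval, and RASA3 on 13q, a RAS GTPase-activating protein, had 28. Per length these were 85.6 and 144 shared regions per Mb, beside 67 and 104 over their whole windows, and as the genes were picked for their counts this is a description only. AHRR on 5p, the repressor of the aryl hydrocarbon receptor, B4GALNT3 on 12p, KANK1 on 9p and NXN on 17p had 21 each. CFAP46 on 10q and WNK1 on 12p, a kinase that controls chloride cotransport, had 20 each, and PNPLA7 on 9q had 18. The median was 6 for genes at the ends and 5 for all. In RPE1 an extra segment of 10q is known to be joined to the X chromosome. The 10q window had 115 regions in R1 and 87 in R2, ratios of 2.002 and 1.63. Its median background was 12.6 and 11.99, beside 12.7 in the rest of chromosome 10 in each list. That rest may hold part of the extra segment too, so it is no reference for it. Over the rest of all autosomes the median was 11.6 and 11.5, from 8.93 on chromosome 13 to 18.4 on chromosome 19 in R1. Copy number itself was not tested.

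The strongest shared end region lay at the outer edge of 17q, 10049 bp from the chromosome end and 152023 bp from METRNL (chr17:83247146-83247393). Its fold was 22.95 in R1 and 22.74 in R2, the highest of the autosomal regions in each list, from 204 and 199 fragments over the lowest background of the list. It was 248 bp wide, and 99.8% of shared autosomal regions were wider. The next was the region over the SPATC1L promoter printed above, on 21q (chr21:46183913-46185191), with folds of 17.4 and 17.1. Its summit held 1487 fragments in R1 and 1372 in R2, rank 2 among all autosomal regions in each list, over a local background of 84.3 and 79.3. Tandem copies and fragment number were not tested against each other.

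A pair of strong regions lay on 20q, one over the pseudogene IQSEC3P3 (chr20:64327297-64328055, folds 16.0 and 16.7) and one between genes (chr20:64286610-64287565, folds 16.05 and 16.4). The 3q region lay 17699 bp from DLG1, a cell polarity scaffold (chr3:197317021-197318084, folds 17.2 and 15.3). On 19q the region at ZNF211 had folds of 15.0 and 14.6 (chr19:57632823-57634177), and on 9p a region in ZNG1A had 15.1 and 14.4 (chr9:169605-170467). A 6q region 17663 bp from the proteasome gene PSMB1 had 13.996 and 13.3 (chr6:170516891-170517456). The 2q region over LINC01237 had 13.1 and 13.8 (chr2:241965779-241966493). Of these named regions, 2 lay at the end of a protein-coding gene, SPATC1L and ZNF211, beside 27.9% of all shared end regions. They are too few to tell their share from that one.

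**Figure D3:**
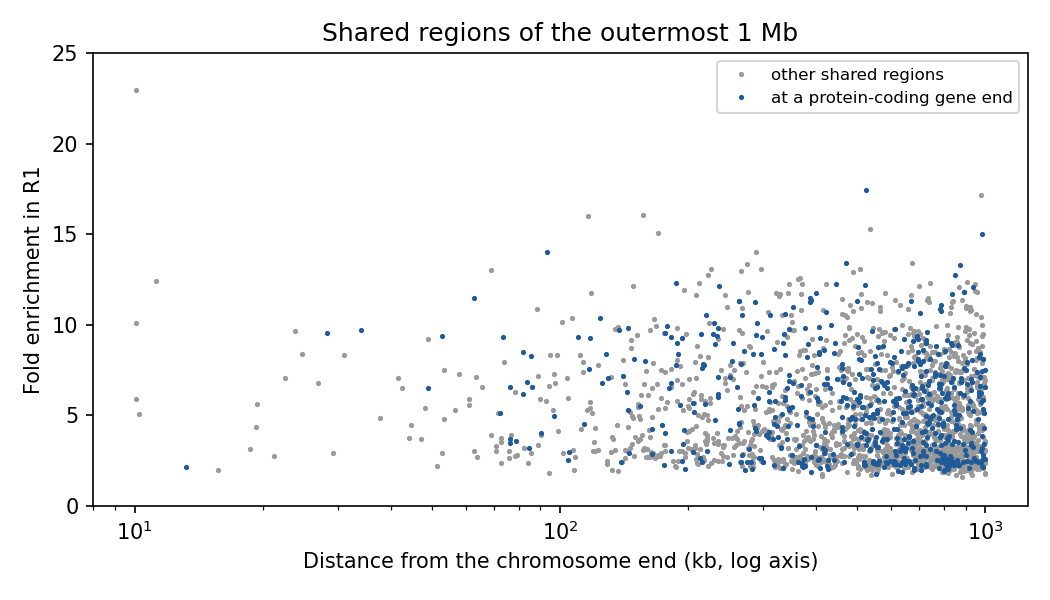
Fold enrichment in R1 (vertical axis) of each shared end region against its distance from the chromosome end (horizontal axis, kb, log scale), with regions at protein-coding gene ends in blue and the others in grey. The 17q region at 10.05 kb stands alone at a fold of 22.95, and few regions lie within 100 kb of an end.

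Density was lowest at the very end. The outermost 100 kb held 108 regions in R1 and 102 in R2, or 27.7 and 26.2 per Mb, in 19 of 39 windows in each list. Density rose to 85.4 per Mb in R1 and 77.9 in R2 between 800 and 900 kb. Beyond the window it was 82.3 and 72.2 per Mb between 1 and 2 Mb, 58.3 and 51.4 between 2 and 3 Mb, and 46.9 and 42.8 between 5 and 6 Mb. Of the 644 protein-coding genes wholly in the windows, 33 fell in the outermost 100 kb and 68 between 800 and 900 kb. Between 900 and 1000 kb, 42 genes stood beside 85.4 and 73.1 regions per Mb. Distances count unresolved bases of the assembly. The part of gene number or missing sequence in the low density at the very end was not tested. The few shared regions of the outermost 100 kb, 89 in all, were stronger than the other shared end regions, with a median fold of 5.38 beside 4.41 in R1 and 5.12 beside 4.26 in R2.

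**Figure D4:**
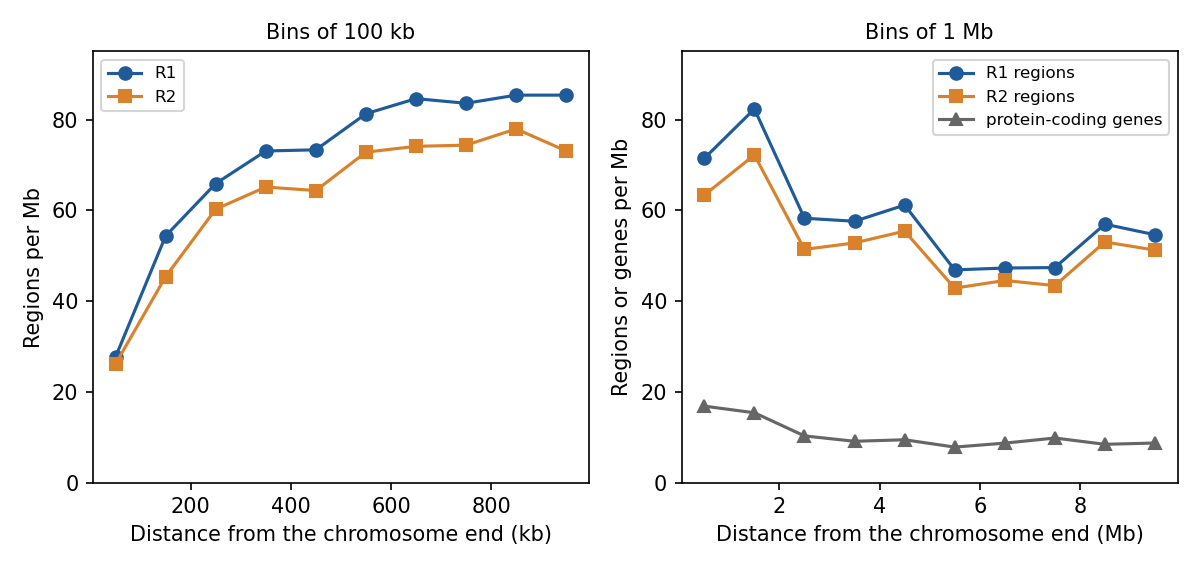
Open regions per Mb (vertical axis) by distance from the chromosome end over 39 ends, in bins of 100 kb (left) and of 1 Mb (right, with protein-coding genes per Mb as triangles), for R1 (circles) and R2 (squares). On the left, density rises from 27.7 and 26.2 per Mb in the outermost 100 kb to 85.4 and 77.9 between 800 and 900 kb. On the right, the highest of the 1 Mb bins is that between 1 and 2 Mb, at 82.3 and 72.2.

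In the 38 windows with any region, the outermost region of either list lay between 10.05 and 805 kb from the chromosome end, with a median of 102 kb. In 12 of these windows 26 protein-coding genes lay wholly outside it, among them 5 on 1p with 3 of the OR4F olfactory receptor genes, OR4F5, OR4F16 and OR4F29, and 4 beta-defensin genes on 20p. Within 20 kb of an end there were regions on 5 arms only: 17q, 16p, 9p, 2p and 13q, with 13 in R1 and 10 in R2. After the 17q one, the outermost shared regions were chr16:10067-11167 (folds 10.1 and 8.30), chr9:10084-11551 (5.92 and 5.09), 2961 bp from WASHC1, and chr2:10218-10758 (5.04 and 6.82). The 13q region chr13:114351989-114353098 had a fold of 12.4 in R1, percentile 97.2 of the list, and 6.94 in R2, percentile 67.5.

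Promoter sequences at the ends were rich in G and C, and more so where a region lay. The RefSeq table, which covers 21 of the autosomes here, has 669 promoters of 300 bases in the end windows, for 491 of the 644 protein-coding genes among others. A shared region overlapped 414 of them (61.9%), beside 67.4% elsewhere. The median GC content was 69.3% at the ends and 62.3% elsewhere. End promoters with a region had a median GC content of 72.0% and 34 CpG, and those without 62.0% and 14. Inner promoters had 65.3% and 26 with a region, and 52.3% and 5 without.

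GGGCGG was found in 80.2% of end promoters with a region, 46.7% of those without and 56.6% of all promoters in the table. CCGGAAG was found in 24.9%, 7.06% and 12.9%, ATTGG in 30.2%, 30.6% and 34.4%, GGAATG in 7.73%, 12.5% and 12.2%, and TGANTCA in 2.17%, 2.75% and 6.08%. TTAGGG was found in 6.28%, 7.84% and 8.92%. Inner promoters differed in the same direction for GGGCGG, with 69.7% where a region lay and 28.3% where none did, and for CCGGAAG, with 17.2% and 3.58%. For the others the inner shares were 34.8% and 33.8% (ATTGG), 11.1% and 14.8% (GGAATG), 5.25% and 8.18% (TGANTCA) and 8.42% and 10.2% (TTAGGG). The contrast for GGGCGG and CCGGAAG is thus not particular to the ends. These shares follow base composition in part, which was not separated from them. Promoters whose bases match themselves at 70% or more at a shift of 10 to 100 bases numbered 5 of 669 (0.747%) at the ends and 24 elsewhere (0.117%). The 5 were those of CLUL1, DYNC2I1, LMF2, LOC105375116 and SPATC1L, and a shared region overlapped 3 of them (CLUL1, LMF2 and SPATC1L).

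At the 1 Mb limit itself, the last regions inside were chr19:998765-999274 in R1, with a fold of 1.77, and chr9:998551-999042 in R2, with 6.66. The first outside were chr12:132275056-132275424 (3.01) in R1 and chr12:132275021-132275474 (3.26) in R2. In R1, 2 regions lay across a limit and in R2, 3 did, and they count with the rest.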

How the data were processed

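Both merged lists were deposited by the authors as headerless peak tables. Each row gives a position, a score, a fold enrichment (a ratio), p and q as −log10 values, all as the authors deposited them, and the summit offset. Coordinates follow hg38, as the submitters' processing notes say. Neither an aligner nor a peak caller is named, and a read shift for Tn5 is likewise not given in the sources used here. No library has a table of its own, so depth per library is unknown, and the fragments at summits (inferred, whole numbers for 100% of autosomal peaks within 0.001 of the −log10 p) are the only measure of depth.

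Peaks were assigned to end windows by position and called found in the other list at an overlap of at least 1 bp. Genes came from the RefSeq table of GRCh38.p14, which gives no strand, so a gene end is any base within 1000 bp of either edge, and 676 autosomal entries on other sequences were left out. Intervals are exact binomial ones at 95% (scipy 1.17.1) and cover counting error only. From each gene list the text names up to 3 members ranked best by fold percentile averaged over the lists, the first 2 alphabetically without a region and the first with one in 1 list. It also names regions and genes, though not each one, from the 10 strongest shared regions, the 5 nearest to an end, the leading regions of the 5 densest and 5 sparsest windows and the 10 genes with most regions within 20 kb, and the best promoters. TRIM28, UBE2M, KDM5A, GEMIN4, RACK1 and the genes beside them were named after their values were seen. Members, windows and gene lists were chosen with earlier results of these data known. Some items are not reported here. Steps were tested on simulated data, with 0 errors in 3000 overlaps, 3000 window assignments and 4908 fragment numbers. Python 3.11.15, numpy 2.4.6, pandas 2.3.3 and matplotlib 3.10.9 were used. Alternatives covered window size, q-value, strength, overlap and gene-end distance.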

Additional observations from a re-analysis of the deposited data

Results flagged for a closer look

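The rule for end regions takes autosomes only, and chromosome X also held peaks in its end windows. There were 28 in R1 and 21 in R2. They are given because the rule left them out, and no excess over the rest of chromosome X is meant. The start window held 8 in R1 and 5 in R2 and the end window 20 and 16, beside 20.6 and 19.8 regions per Mb in the rest of the chromosome. Their median fold was 5.15 in R1 and 7.85 in R2.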

How the results depend on the processing

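Among regions above the median fold of their list, the density ratio fell just below 1, to 0.971 in R1 and 0.972 in R2. No interval was computed for these values, so a true reversal is not shown. In that part, 21 of 39 windows in R1 and 20 in R2 still lay above the rest of their chromosome. Among regions above the median number of fragments, the density ratio was 1.29 and 1.26. In R1 and R2 it was 1.21 and 1.14 with 500 kb windows, 1.60 and 1.499 with 2 Mb windows, 1.24 and 1.16 without stretches over 1 Mb that hold no region, 1.25 and 1.20 at a −log10 q-value of at least 5, 1.14 and 1.11 at 10, 1.33 and 1.30 over regions in both lists, and 1.41 and 1.32 without chromosome 16. Chosen after seeing the data, it was 1.31 and 1.23 over all 44 ends and 1.58 and 1.48 without the outermost 100 kb. The share found in the other list was 65.4% and 73.7% when 50% of both regions had to overlap, 72.0% and 80.0% with the other summit inside, and 87.1% and 91.0% at a −log10 q-value of at least 5 in both. The gene-end share was 18.4% and 20.7% within 500 bp, 30.9% and 31.6% within 2000 bp, 29.4% and 30.0% at a −log10 q-value of at least 5 and, chosen after seeing the data, 12.7% and 14.6% with promoter sequences in place of gene ends. Over regions in both lists the median fold was 4.30 and 4.25, the width 780 and 795 bp and the fragments 85 and 77. Of 58 alternative values, 38 moved, 2 (the ratios above the median fold) fell just below 1 and 18 stayed close. Each count of genes with a region, from 456 to 527, was among the close ones. Those counts were held to a far wider band than the other results, which were held to 95% intervals, so their labels cannot be compared. The causes were not tested beyond each setting's construction. No paired analysis was possible because each set is 1 pooled list. For the same reason leaving out single libraries was not run, and depth limits what weak regions can show.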
